A study of Mus musculus with 7 samples.

Results

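The protein-coding genes of the nucleus whose products build the 5 complexes of oxidative phosphorylation, or carry electrons between them as cytochrome c, were compared between WT and dyW fetal muscle fibers. Members were taken by gene symbol alone, as the Nduf, Sdh, Uqcr, Cox, *Cyc1*, *Cycs* and Atp5 gene names, and 3 symbols marked as pseudogenes were left out. This gave 85 of the 31531 genes counted, with 35 in complex I, 4 in complex II, 9 in complex III, 20 in complex IV, 16 in complex V and 1 for cytochrome c. *Ndufa4* and *Ndufa4l2* were placed in complex IV, where the *Ndufa4* protein is now assigned. The naming rule also brought in *Cox7a2l*, a supercomplex factor counted with complex IV, and *Atp5s*, a coupling factor by name counted with complex V.

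In oxidative phosphorylation, complexes I and II feed electrons into the inner mitochondrial membrane, complex III hands them to cytochrome c, and complex IV passes them to oxygen. Complexes I, III and IV pump protons as they do so, and complex V, the ATP synthase, uses the returning protons to make ATP. Most subunits are encoded in the nucleus and a few in the mitochondrial genome, and skeletal muscle exchanges some complex IV subunits for muscle isoforms as it matures.

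RNA was measured by SMART-seq2, which copies polyadenylated RNA into cDNA along its whole length, in epaxial muscle fibers of mouse fetuses at embryonic day 17.5. There were 4 WT libraries and 3 libraries from homozygous dyW/dyW fetuses, each from a different animal. As each fetus gave a single library, differences between fetuses, dissections and library preparations cannot be told apart in the spread within a group. In dyW mice the *Lama2* gene, which encodes the laminin α2 chain of the muscle basement membrane, is disrupted in every cell, and the line is a model of LAMA2-congenital muscular dystrophy. Fibers were released from the back muscles with dispase and collagenase and retained on a strainer, with no sort by cell type described.

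Values below are normalized counts, meaning uniquely mapped reads on a gene divided by a size factor for the library, in order of replicate number within each group. *Lama2* stood at 90.6, 111, 105 and 107 in WT and 4.29, 6.07 and 139.7 in dyW. The last dyW value lay above all WT values, against its label, and that sample is therefore called the library labelled dyW3.

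The libraries differed in depth and content before any comparison. Between 470804 and 2220813 reads fell on genes in WT and between 3663905 and 18297106 in dyW, and the value of 1 read ranged from 2.05 to 5.33 normalized counts in WT and from 0.0974 to 0.488 in dyW. The median number of reads per member was 6, 34, 159 and 27 in WT and 548, 3694 and 326 in dyW. WT1 and dyW1 stood apart from the rest by their markers. Summed over 11 myofiber genes, the normalized counts were 2634, 19141, 70138 and 15047 in WT and 65.8, 8271 and 4825 in dyW, and in dyW1 5 of the 11, *Ckm*, *Des*, *Myh3*, *Myh8* and *Tnnc2*, were at 0. Summed over 5 cartilage genes they were 436239, 127, 8949.8 and 2741 in WT and 355, 12.9 and 30.3 in dyW. Summed over 8 bone genes, a list added after the data were seen, they were 64.0, 108, 16837 and 101 in WT and 103757, 0.379 and 13.7 in dyW. The 7 erythroid genes summed to 90.6, 291249, 171950.0 and 130016 in WT and 14.8, 28845 and 171958 in dyW, and the 8 fibroblast genes to 4179.6, 9562, 14966 and 7901 in WT and 21951, 33379 and 27521 in dyW. Summed over 5 endothelial genes the counts were 496, 445, 328 and 525 in WT and 1258, 681 and 555 in dyW. As in the fibroblast sums, every dyW library lay above every WT library, but this did not hold for each gene. *Pecam1* had a log2 fold change of −0.57, and those of the other endothelial genes were above 0, up to 2.19 for *Tek*. Summed over 5 immune genes the counts were 107, 529, 336 and 249 in WT and 58.1, 296 and 192 in dyW. The leukocyte marker *Ptprc* was at 0 in dyW1 and dyW2, while *Cd68* was the only immune gene with a log2 fold change above 0 (0.90). Of 6 fat genes, every one was at 0 in every dyW library, while their sum was between 43.1 and 123 in WT. Genes for odorant and vomeronasal receptors, which sense smells and pheromones in the nose, moved the same way, since the median over 1330 of them was 3.78, 7.18, 3.84 and 6.25 in WT and 0, 0 and 0.733 in dyW normalized counts per kb of exon. In such bulk libraries fewer cells of a type and less RNA per cell cannot be told apart, and the part of these differences in the values below was not tested.

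No member passed the study's thresholds for a changed gene, while the summed level of the members spanned 10.3-fold within WT and 7.54-fold within dyW. Of the 85 members, 83 had a mean of at least 5 normalized counts and were tested, and *Cox7b2* and *Cox8c*, the testis isoforms of complex IV subunits, fell below. With limma on log2(normalized count + 1) and Benjamini-Hochberg adjustment over 25791 genes, 0 of the 83 were called lower in dyW and 0 higher, where a call needs an adjusted P-value under 0.01 together with a log2 fold change beyond 1.5 in size. Among all tested genes 18.7% were called lower and 0.0659% higher, and among the 6111 genes with a mean of at least 50, to which 73 of the members belong, 2.45% and 0.278%. At an adjusted P-value under 0.05 in limma, again 0 members were lower and 0 higher, beside 5.09% and 4.01% of the genes with a mean of at least 50 (29.6% and 1.01% of all tested genes). At an unadjusted P-value under 0.05, 0 members were lower and 1 was higher, against 8.89% and 10.7% of the genes with a mean of at least 50 and 41.5% and 2.81% of all tested genes. With voom on whole reads recovered from the normalized counts, 0 members were called in either direction and 0 passed an unadjusted P-value of 0.05. In that voom fit 1.91% of the genes with a mean of at least 50 were called lower and 0.0818% higher, and 7.61% were lower and 2.05% higher at an unadjusted P-value under 0.05 (36.7% and 0.543% of all tested genes).

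The fitted log2 fold changes, dyW minus WT, leaned above 0 without passing the test. Their median over the 83 members was 0.63, with 66 above 0 and 17 below and a range from −1.78 to 2.63. The median over all 25791 genes was −1.99, and over the genes with a mean of at least 50 it was 0.20, against 0.68 for the 73 members among them. The median was 0.71 in complex I (33 of 35 above 0), 0.87 in complex II (3 of 4), 0.67 in complex III (8 of 9), 0.39 in complex IV (12 of 18) and 0.25 in complex V (9 of 16). In the catalytic F1 head of complex V the median was −0.17, with 1 of 5 members above 0. The median of all members turned to −0.22 without dyW2 and rose to 1.15 without WT3 and 1.35 without dyW1, while it was 0.093 without WT1 and 0.20 with voom. With the receptor level subtracted it was 0.89, and the median of all genes rose from −1.99 to −0.29. Scaling all libraries to the same total raised the median of all genes from −1.99 to −1.24 and that of the members to 1.77, and under it 6 members passed an adjusted P-value of 0.05 in limma with Benjamini-Hochberg adjustment, all higher in dyW. Under that scaling 18.5% of the genes with a mean of at least 50 (4.85% of all tested genes) were higher at the same threshold, compared with these 6 members of 73. These were *Ndufa1*, *Ndufb3*, *Ndufv1* and *Ndufv2* of complex I and *Sdha* and *Sdhd* of complex II, of which *Ndufb3*, *Ndufv1* and *Ndufv2* are named after their values were seen.

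**Figure D1:**
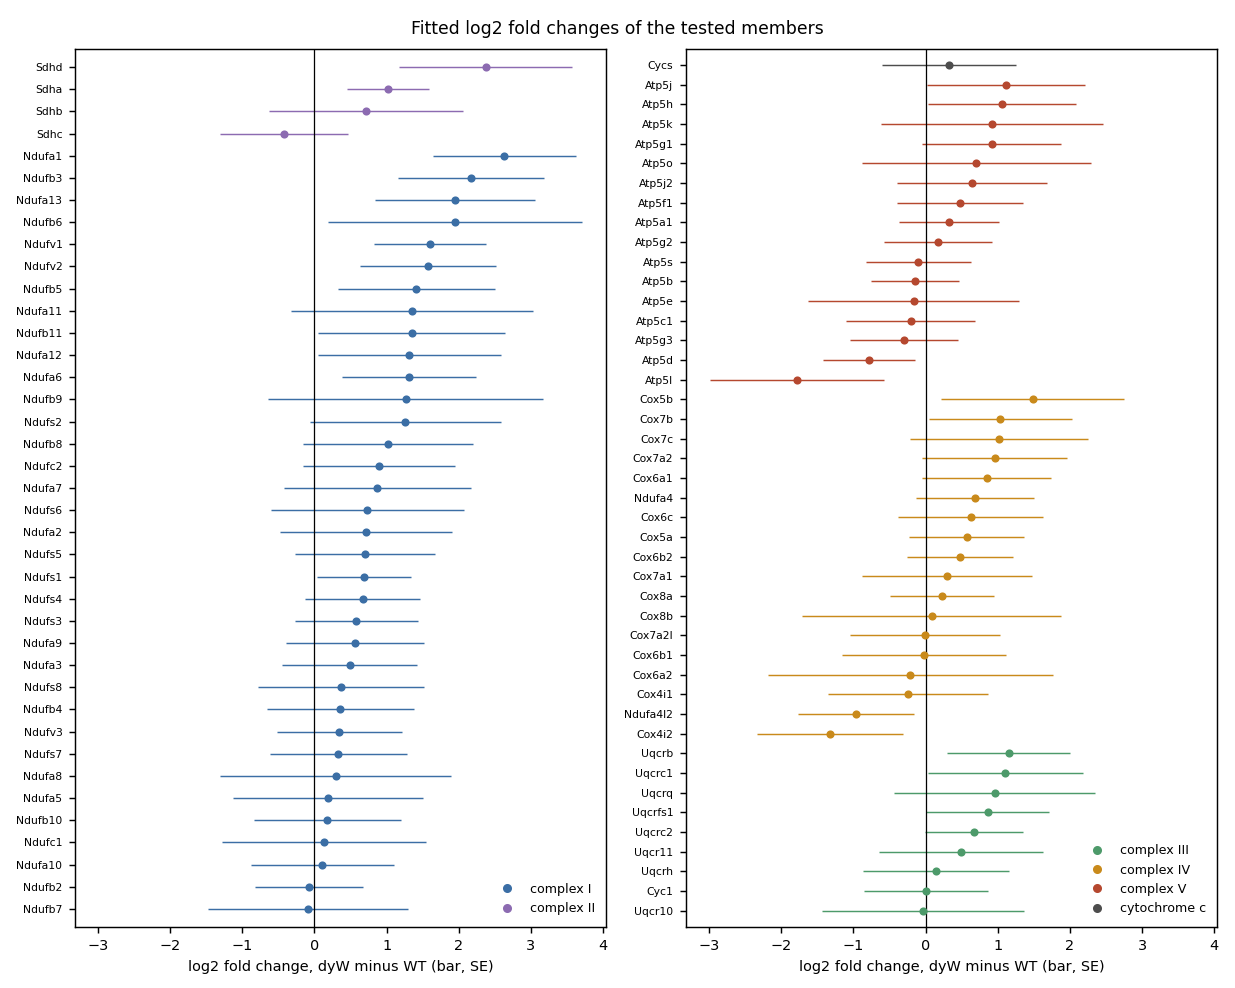
Log2 fold change of each of the 83 tested members, dyW minus WT, on log2(normalized count + 1), with the standard error of the limma fit as a bar, coloured by complex. Complex I lies mostly right of 0, up to 2.63 for Ndufa1, while Atp5l lies farthest left at −1.78, and most bars cross 0.

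No member separated the groups. For 0 of the 83 tested members did every WT library exceed every dyW library, and for 0 did every dyW library exceed every WT library, whereas 6.81% and 12.2% of the genes with a mean of at least 50 were separated in these directions (31.5% and 3.28% of all tested genes). The count of separated members rested on single libraries. Without WT3, 9 members were separated as higher in dyW and 1 as lower, where 18.0% and 10.7% of the genes with a mean of at least 50 were. Without dyW1, 8 were higher and 0 lower, beside 20.4% and 13.7% of those genes, and without both WT1 and dyW1 again 8 and 0, beside 24.2% and 15.0%. With libraries scaled to the same total 10 were higher, 9 of them with a mean of at least 50, beside 29.6% of the genes of that level. A single member was lower without WT4, beside 32.5% of all tested genes, since its mean was under 50, and 1 without the library labelled dyW3, beside 13.5% of the genes with a mean of at least 50.

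What the members shared was their order across libraries within each genotype. Over the 73 members with a mean of at least 50, the median of log2(normalized count + 1) was 5.45, 6.66, 8.81 and 6.58 in WT and 5.95, 8.96 and 7.54 in dyW, a range of 3.51. Over all 6111 genes of that level the same medians spanned 0.47. WT3 held the highest WT value for 71 of the 73 members, beside 32.9% of those 6111 genes, the exceptions being *Atp5l* and the complex I core subunit *Ndufs1*, which were highest in WT1. WT1 held the lowest WT value for 63 (31.1% of the 6111). In dyW, dyW2 was highest for 63 and dyW1 lowest for 67, beside 34.9% and 36.1%. Against the range of the WT libraries, dyW2 lay above every WT library for 47 of the 73, where it did so for 40.6% of the 6111 genes. The dyW1 library lay below every WT library for 11 and above for 0, beside 26.9% and 38.3%, and the library labelled dyW3 lay within the WT range for 64, beside 35.3%. Over complex I this gave dyW2 above every WT library for 28 of 33 members, compared with 4 of 12 in complex IV and 7 of 14 in complex V.

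Other genes with short transcripts moved with the members across the libraries. The median transcript of the members was 1079 bases long, against 4024 for the genes with a mean of at least 50. Medians of log2(normalized count + 1) over 278 non-member genes with transcripts under 1000 bases were 5.45, 6.07, 7.52 and 6.20 in WT and 5.49, 8.05 and 6.74 in dyW, a range of 2.60. Among 3060 non-member genes with transcripts over 4000 bases the range was 0.88 and WT3 was the lowest of the 4 WT libraries. Of gene families that include many such short transcripts, the cytosolic ribosomal proteins (74 genes) spanned 2.92 and the mitochondrial ribosomal proteins (46 genes) 2.52, each with WT3 highest in WT. Their order was not the same as that of the members throughout, because the medians of the cytosolic ribosomal proteins were 7.33, 8.69, 10.25 and 9.68 in WT and 7.70, 9.28 and 9.42 in dyW, with the library labelled dyW3 above dyW2. The mitochondrial ribosomal proteins were highest in dyW2 among the dyW libraries. The 16 genes of the tricarboxylic acid cycle and pyruvate dehydrogenase summed to 917, 1583, 2732 and 1152 in WT and 1417, 5884 and 2413 in dyW. Like the members, they were highest in WT3 and dyW2 and lowest in WT1 and dyW1 within their groups. Within the 14 members with transcripts of 2000 to 4000 bases the range was 3.09, compared with 0.66 for 1889 non-member genes of that length. The part of transcript length in the members' pattern was not tested.

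**Figure D2:**
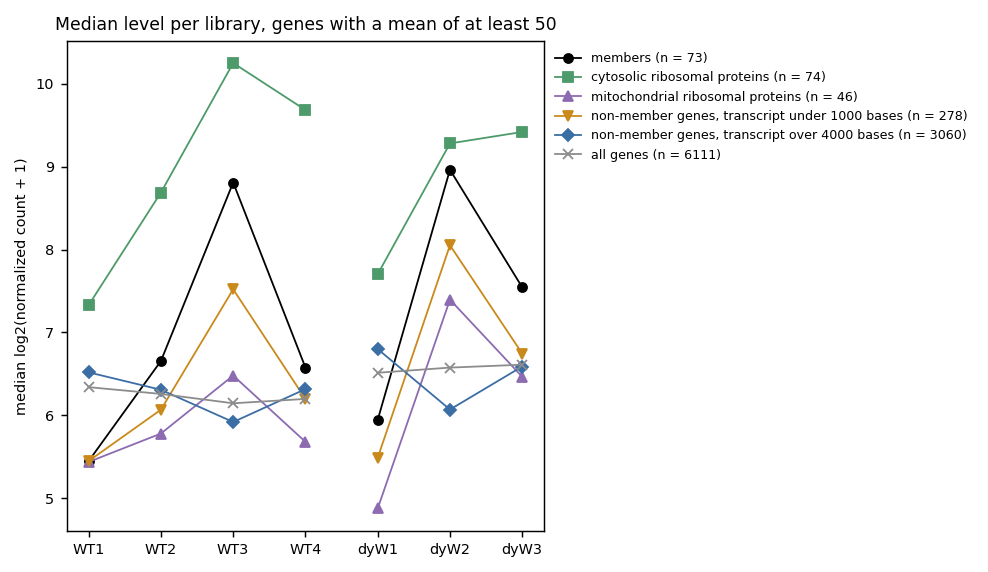
Median log2(normalized count + 1) in each library for genes with a mean of at least 50: members, ribosomal proteins, non-member genes by transcript length, and all genes. Lines join libraries of a genotype and imply no order, and the members peak in WT3 (8.81) and dyW2 (8.96) while all genes stay between 6.14 and 6.61.

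**Figure D3:**
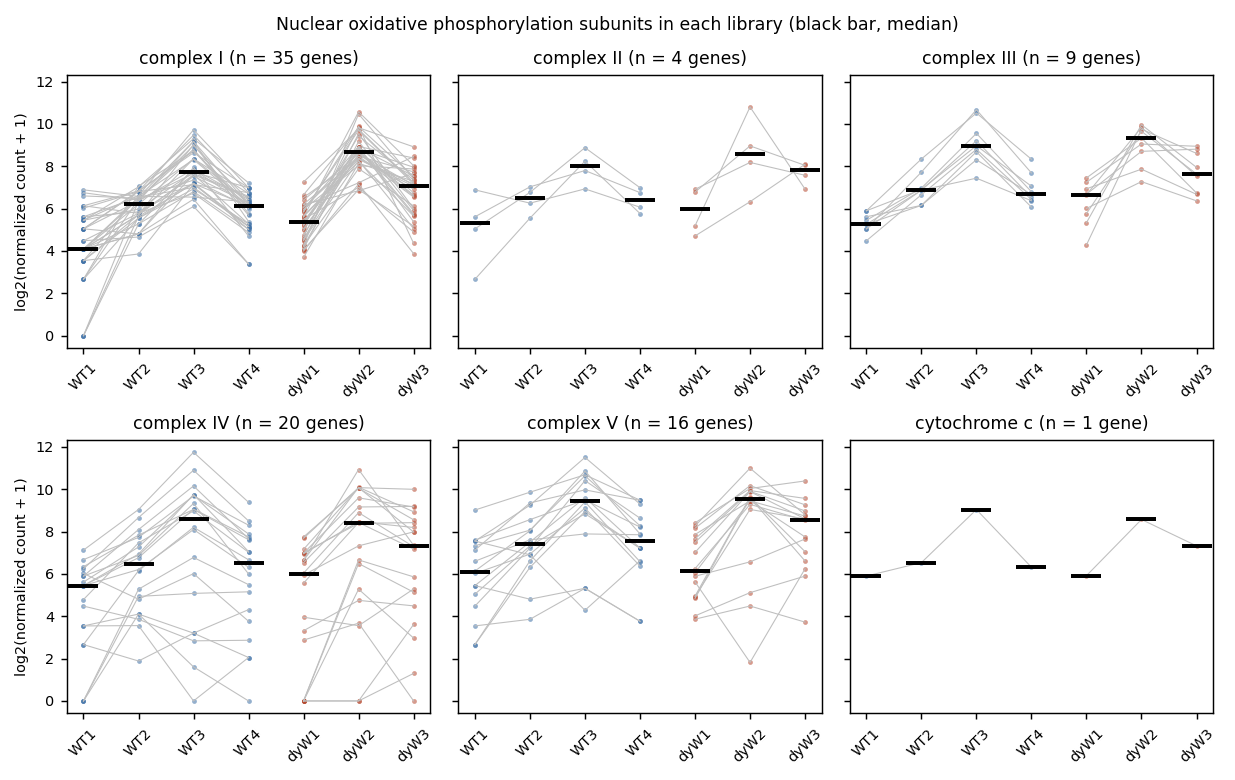
Log2(normalized count + 1) of each of the 85 members in each library, by complex, with WT in blue, dyW in red, grey lines joining the values of a gene and a black bar at the median. In every panel the WT median is highest in WT3 and the dyW median in dyW2, and the groups overlap for every tested member.

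Promoters were examined for features that members share, since many of these genes are known to be activated by NRF1, by ETS-family factors such as GABP, by YY1 and by ERR factors, while E-boxes bind MyoD-family factors. RefSeq promoters on GRCm38.p6, an older build than the GRCm39 of the counts, run from 250 bases before to 50 bases after the start of a gene and were matched for 69 of the 85 members (81.2%). *Cox6a2* and *Cox4i1* were not matched. Each motif was searched on both strands, and no motifs overlap each other in the promoters shown. The NRF1 motif CGCANGCG was in 24 of the 69 promoters (34.8%) against 8.42% of all 27025 genes. The ETS motif CCGGAAG was in 15 of the 69 promoters (21.7%) against 9.12% of all genes, and the YY1 motif AANATGGCG in 8 of the 69 promoters (11.6%) against 2.51% of all genes. The ERR motif TNAAGGTCA was in 3 of the 69 promoters (4.35%) against 1.26% of all genes, and the E-box CAGCTG in 6 of the 69 promoters (8.70%) against 16.1% of all genes. Median GC content was 57.3% in the members and 52.7% over all genes. The E-box holders were *Atp5b*, *Cox8b*, *Ndufa8*, *Ndufb10*, *Ndufs5* and *Ndufv2*. The muscle isoform *Cox7a1* and its general form *Cox7a2* held none of these motifs. A match is a description and no evidence of binding, and no link between motifs and levels was tested.

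*Cycs* and *Sdha* hold NRF1 motifs, the general isoform *Cox8a* holds ETS motifs and its muscle isoform *Cox8b* holds E-boxes. *Atp5l*, whose values ran against those of most other members, holds 1 NRF1 and 2 ETS motifs. The promoters of these 5 genes were taken as examples. They lie at chr6:50566520-50566819 on the minus strand for *Cycs*, chr13:74350191-74350490 on the minus strand for *Sdha*, chr19:7217567-7217866 on the minus strand for *Cox8a*, chr7:140900397-140900696 on the minus strand for *Cox8b* and chr9:44920693-44920992 on the minus strand for *Atp5l*. Each is written 5′ to 3′ on the strand of the gene with motif matches in capitals.
Cycs: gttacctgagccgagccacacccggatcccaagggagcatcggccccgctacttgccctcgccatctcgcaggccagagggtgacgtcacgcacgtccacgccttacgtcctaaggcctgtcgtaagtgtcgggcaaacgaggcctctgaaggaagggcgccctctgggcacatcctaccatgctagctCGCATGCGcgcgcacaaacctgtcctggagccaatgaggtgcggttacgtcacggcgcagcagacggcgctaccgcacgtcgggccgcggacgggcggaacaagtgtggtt
Sdha: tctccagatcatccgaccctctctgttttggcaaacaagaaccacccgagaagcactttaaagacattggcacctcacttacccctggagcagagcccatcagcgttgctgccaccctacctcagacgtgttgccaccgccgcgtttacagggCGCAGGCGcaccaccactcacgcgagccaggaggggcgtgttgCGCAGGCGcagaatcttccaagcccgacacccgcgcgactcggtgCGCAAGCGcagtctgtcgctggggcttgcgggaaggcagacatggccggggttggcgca
Cox8a: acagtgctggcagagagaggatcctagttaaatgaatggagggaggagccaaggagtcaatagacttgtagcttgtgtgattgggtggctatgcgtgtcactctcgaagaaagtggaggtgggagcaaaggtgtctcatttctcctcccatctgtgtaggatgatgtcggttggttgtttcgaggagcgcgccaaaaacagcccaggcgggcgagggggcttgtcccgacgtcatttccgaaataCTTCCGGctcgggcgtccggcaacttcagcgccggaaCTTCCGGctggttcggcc
Cox8b: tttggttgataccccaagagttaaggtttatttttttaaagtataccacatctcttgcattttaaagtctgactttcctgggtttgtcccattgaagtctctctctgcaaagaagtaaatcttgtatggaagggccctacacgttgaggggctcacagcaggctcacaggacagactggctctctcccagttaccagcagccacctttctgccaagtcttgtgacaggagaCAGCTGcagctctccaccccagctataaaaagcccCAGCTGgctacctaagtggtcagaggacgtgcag
Atp5l: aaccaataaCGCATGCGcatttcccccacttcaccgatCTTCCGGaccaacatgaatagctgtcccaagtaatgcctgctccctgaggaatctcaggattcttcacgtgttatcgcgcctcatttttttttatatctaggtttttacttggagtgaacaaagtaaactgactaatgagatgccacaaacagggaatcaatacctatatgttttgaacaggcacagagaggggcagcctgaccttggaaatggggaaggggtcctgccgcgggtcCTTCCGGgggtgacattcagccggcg

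Complex I, the entry point for electrons from NADH, held the member with the lowest P-value. *Ndufa1*, a membrane subunit essential for its assembly (ENSMUSG00000016427, chromosome X, 36451241 to 36454849, minus strand, GRCm39), was counted at 15.99, 27.0, 195 and 37.8 in WT and 152, 854 and 148 in dyW. The dyW values lay above WT1, WT2 and WT4 in every library, but WT3 exceeded dyW1 and the library labelled dyW3. Its log2 fold change was 2.63 (SE 0.99), with an unadjusted P-value of 0.0270 and a Benjamini-Hochberg adjusted P-value of 0.0726 in limma, and an exact permutation test of the normalized counts gave P = 0.171, where the smallest value 4 against 3 libraries allow is 0.0571. Without WT3 the adjusted P-value in limma was 0.0263, where 4.27% of the genes with a mean of at least 50 were higher at an adjusted P-value under 0.05. WT1 and WT2 rested on 3 and 10 reads of this gene. At the other end, *Ndufb7*, an accessory subunit on the outer face of the membrane arm, was counted at 15.99, 86.3, 503 and 85.0 in WT and 16.2, 576 and 59.1 in dyW. Here the highest and the lowest values of the genotypes were close, with a log2 fold change of −0.09 (SE 1.38) and an adjusted P-value of 0.966 (limma, Benjamini-Hochberg).

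Summed over the 35 complex I genes, the normalized counts were 1104, 2473, 10299.6 and 2373 in WT and 1612, 17607 and 4904 in dyW. The sums spanned 9.33-fold within WT and 10.9-fold within dyW, and the log2 ratio of the means was 0.99, which turned to −0.32 without dyW2 and rose to 2.02 without WT3. As a share of all the members' reads, which does not depend on the scaling of a library, complex I took 25.5%, 22.5%, 23.1% and 21.4% in WT and 25.8%, 37.4% and 25.8% in dyW. Every dyW share lay above every WT share, but WT1 rested on 813 reads with a 95% Wilson interval from 22.6% to 28.6%, which includes the 25.8% of dyW1 and of the library labelled dyW3. Such intervals cover counting error only, since PCR copies were counted without molecular identifiers. The mean difference of 6.57 percentage points fell to 2.72 without dyW2, was 8.51 without dyW1 and 8.49 without the library labelled dyW3. The 7 core subunits had a median log2 fold change of 0.68 and the 28 accessory subunits one of 0.72.

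Complex II, succinate dehydrogenase, is built from 4 nuclear genes and is also an enzyme of the tricarboxylic acid cycle. *Sdha*, the flavoprotein that oxidises succinate, was counted at 117, 75.5, 121 and 66.1 in WT and 119, 289 and 189 in dyW, and its iron-sulfur partner *Sdhb* at 32.0, 108, 469.7 and 126 in WT and 35.4, 1784 and 120.1 in dyW. *Sdhb* in dyW2 stood well above every other library. Of the membrane anchors, *Sdhc* was counted at 48.0, 129, 222 and 107 in WT and 25.1, 79.2 and 272 in dyW, and *Sdhd* at 5.33, 45.8, 302 and 53.5 in WT and 109, 498 and 263 in dyW. The anchors did not follow the same order, since dyW2 held the highest value of *Sdhd* but only the middle dyW value of *Sdhc*. The log2 fold changes were 1.02 (SE 0.57) for *Sdha*, 0.72 (SE 1.34) for *Sdhb*, −0.42 (SE 0.89) for *Sdhc* and 2.37 (SE 1.20) for *Sdhd*. Their Benjamini-Hochberg adjusted P-values in limma were between 0.161 and 0.742. The sums over the 4 genes were 203, 359, 1114 and 352 in WT and 289, 2649.6 and 845 in dyW, a log2 ratio of 1.31, which was 0.16 without dyW2 and 2.05 without WT3. *Sdhd* shares exon bases with *Timm8b* and *Sdha* with *Ccdc127*, and the strand setting of the counting is not given, so reads of such neighbours cannot be told apart.

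Complex III and cytochrome c link the electron donors to complex IV. *Cyc1*, the cytochrome c1 subunit, was counted at 37.3, 70.1, 410.3 and 66.1 in WT and 63.3, 154 and 81.6 in dyW. *Cycs*, the mobile carrier that also triggers apoptosis when it leaves the mitochondrion, was counted at 58.6, 91.7, 525 and 78.7 in WT and 59.4, 379 and 159 in dyW. Both were higher in WT3 than in any other library, with log2 fold changes of 0.01 (SE 0.86) for *Cyc1* and 0.32 (SE 0.93) for *Cycs* and adjusted P-values of 0.995 and 0.813 in limma with Benjamini-Hochberg adjustment. The highest fold change of the complex was that of *Uqcrb*, a subunit near the ubiquinone site, at 48.0, 70.1, 316 and 101 in WT and 174, 643 and 106 in dyW, and the lowest that of *Uqcr10*, a small membrane subunit, at 32.0, 210.3, 1629 and 205 in WT and 39.4, 996 and 246 in dyW. Their log2 fold changes were 1.16 (SE 0.85) and −0.03 (SE 1.40). The sums over the 9 complex III genes were 368, 1249, 6275 and 1193 in WT and 823, 5548 and 2246 in dyW, a 17.1-fold span within WT and a log2 ratio of 0.34. With 1 library left out this ratio ran from −0.57 (without dyW2) to 1.62 (without WT3), and it was also below 0 without WT1 (−0.016).

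In complex IV, cytochrome c oxidase, the fold changes ran from *Cox4i2* (−1.33, SE 1.01) to *Cox5b* (1.48, SE 1.27), and the sums over its 20 genes had a log2 ratio of 0.20. That ratio fell below 0 without dyW2 (−0.55) or without WT1 (−0.14) and was 1.33 without WT3. *Cox5b*, the zinc-binding subunit, was counted at 5.33, 70.1, 293 and 101 in WT and 64.7, 475 and 155 in dyW. *Cox4i1*, the general form of regulatory subunit IV, was counted at 139, 526, 3432 and 667 in WT and 142, 1077 and 1020.2 in dyW, and its lung and hypoxia isoform *Cox4i2* at 21.3, 13.5, 6.15 and 6.29 in WT and 6.33, 11.8 and 0 in dyW. *Cox4i2* rested on few reads in WT, where 6.15 normalized counts are 3 reads. Among the 3 tested members with the lowest means were *Cox7a1* and *Cox4i2*, together with *Cox6b2*, the testis isoform of its subunit, at 10.7, 16.2, 8.21 and 18.9 in WT and 14.5, 10.8 and 38.1 in dyW. *Cox8c* and *Cox7b2* were each at 0 in at least 3 of the 7 libraries.

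The muscle isoforms of complex IV were read as shares of the counts of an isoform pair. *Cox6a2*, the striated muscle form of *Cox6a1* (ENSMUSG00000030785, chromosome 7, 127804607 to 127805559, minus strand, GRCm39), took 0%, 24.6%, 14.5% and 41.2% in WT and 0%, 22.1% and 16.4% in dyW. *Cox8b*, the muscle form of *Cox8a* (ENSMUSG00000025488, chromosome 7, 140477069 to 140480359, minus strand), took 0%, 11.6%, 5.86% and 15.1% in WT and 0%, 21.0% and 9.09% in dyW. Neither muscle isoform had a read in WT1 or dyW1, each the library with the lowest myofiber sum of its group, of which WT1 had the highest cartilage sum of the 7 libraries and dyW1 the highest bone sum. In dyW1 the limit for a count of 0, taken as 3 reads, was 0.292 normalized counts, and in WT1 it was 15.99. *Cox7a1*, the muscle form of *Cox7a2*, took 10%, 1.72%, 0.971% and 1.32% in WT and 0%, 4.68% and 1.18% in dyW. The WT shares rested on 1, 1, 4 and 1 reads of *Cox7a1*, and the 10% in WT1 was 1 read of 10. Without WT1 the difference of group means, dyW minus WT, turned from −1.55 to 0.616 percentage points. With the receptor level subtracted that difference was −0.187 points and per kb of exon −2.60, and for *Cox8b* it went from 1.91 to 4.80 and 0.683 points. The *Cox8b* difference turned to −0.800 without WT1 and −3.58 without dyW2, and was 6.93 without dyW1, 4.22 without WT4, 3.06 without WT2 and 1.15 without WT3. For *Cox6a2* it was −7.22, and −0.176 without WT4, −0.797 without dyW1, −13.9 without WT1 and −11.9 without dyW2. The exact permutation P-values of these 3 shares were 0.571, 0.800 and 0.686. Levels of the isoforms followed the same pattern, with *Cox6a2* at 0, 37.8, 109 and 44.1 in WT and 0, 100.2 and 57.1 in dyW, and *Cox8b* at 0, 29.7, 32.8 and 34.6 in WT and 0, 88.9 and 34.2 in dyW. Their general partners had reads in all libraries, with *Cox6a1* at 58.6, 116, 642 and 62.9 in WT and 123, 352 and 292 in dyW, and *Cox8a* at 80.0, 227, 527 and 195 in WT and 127, 334 and 342 in dyW. Fold changes of *Cox6a2* and *Cox8b* were −0.21 (SE 1.97) and 0.08 (SE 1.79), the widest errors among the isoforms.

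For isoform pairs not tied to muscle, *Cox4i2* took 13.3%, 2.50%, 0.179% and 0.935% in WT and 4.27%, 1.08% and 0% in dyW of the pair with *Cox4i1*. These rested on 4, 5, 3 and 2 reads of *Cox4i2* in WT, and the difference of group means turned from −2.45 to 0.577 percentage points without WT1. *Ndufa4l2*, an isoform of *Ndufa4* that is raised by hypoxia, took 38.7%, 11.4%, 7.19% and 3.85% in WT and 4.03%, 2.41% and 5.41% in dyW, with normalized counts of 64.0, 27.0, 63.6 and 12.6 in WT and 8.96, 25.9 and 21.5 in dyW. Its share was highest in WT1, and the groups overlapped, with a difference of group means of −11.3 percentage points, or −7.41 per kb of exon and −3.52 without WT1. The exact permutation P-values were 0.743 and 0.171. *Cox7a1* itself was counted at 5.33, 2.70, 8.21 and 3.15 in WT and 0, 37.8 and 6.84 in dyW, *Cox7a2* at 48.0, 154, 837 and 236 in WT and 125, 771 and 571 in dyW, and *Ndufa4* at 101, 210.3, 821 and 315 in WT and 213, 1052 and 376 in dyW. Their log2 fold changes of 0.30, 0.96 and 0.68 were within 1 standard error of 0 (1.18, 1.01 and 0.82).

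**Figure D4:**
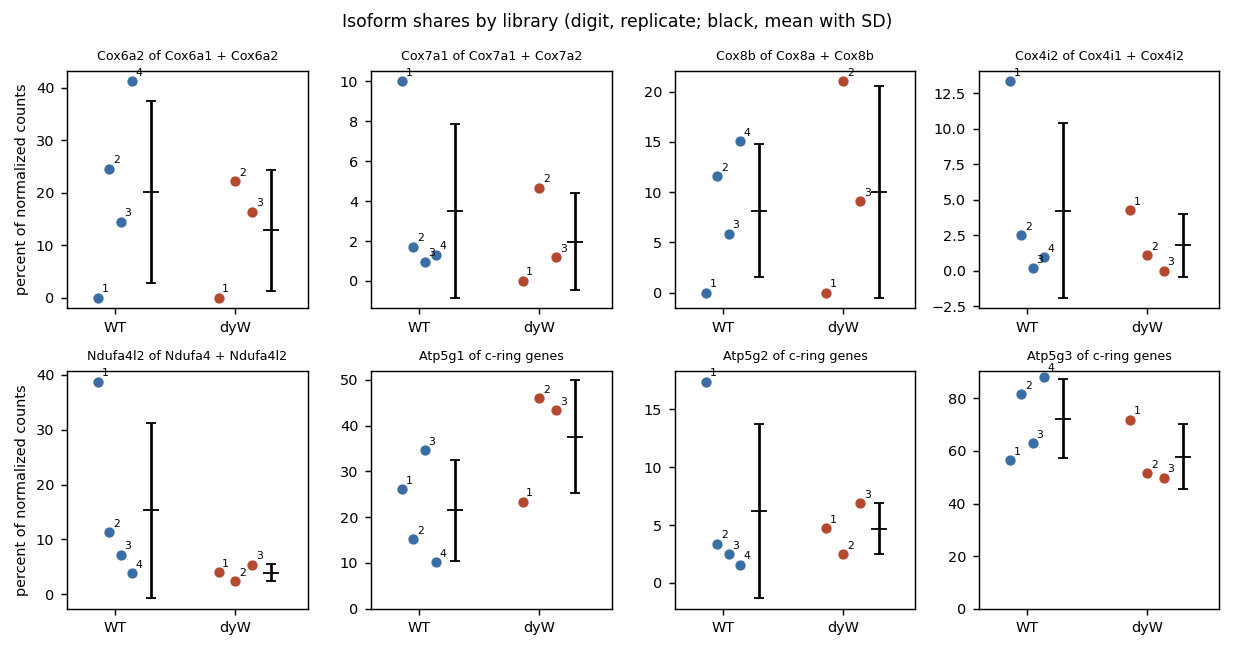
Percent of the normalized counts of an isoform pair, or of the 3 c-ring genes, that came from the named gene, with 1 point per library (the digit is the replicate) and the mean with SD in black. Cox6a2 and Cox8b are at 0 in WT1 and dyW1, and WT and dyW points overlap in all 8 panels.

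In complex V, the ATP synthase, fold changes were balanced around 0. *Atp5b*, the catalytic β subunit of the F1 head, was counted at 517, 928, 1641 and 714 in WT and 340.2, 1048 and 1341 in dyW, and *Atp5c1*, the rotating γ subunit, at 187, 607, 2901 and 629 in WT and 285, 1151 and 613 in dyW. Within WT the standard deviation on the log2 scale was 0.70 for *Atp5b* and 1.62 for *Atp5c1*, and within dyW it was 1.05 and 1.01. The log2 fold changes were −0.15 (SE 0.61) and −0.20 (SE 0.89). *Atp5j*, coupling factor 6 of the stalk, had the highest fold change of the complex, 1.12 (SE 1.09), at 69.3, 262, 1858 and 236 in WT and 307, 2037 and 442 in dyW. The sums over the 16 complex V genes were 1769.9, 4231, 14353 and 4264 in WT and 2034, 11375 and 6012 in dyW, a log2 ratio of 0.07, which was 0.92 without WT3, 0.50 without dyW1, and below 0 without dyW2 (−0.61), WT1 (−0.23), WT2 (−0.070) or WT4 (−0.068). Their share of the members' reads was 40.8%, 38.4%, 32.2% and 38.5% in WT and 32.6%, 24.2% and 31.7% in dyW, with WT3 below dyW1 and otherwise every WT library above every dyW library.

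*Atp5l*, subunit g of the membrane part (ENSMUSG00000038717, chromosome 9, 44800118 to 44832055, minus strand, GRCm39), ran against most other members. It was counted at 187, 119, 18.5 and 97.5 in WT and 48.4, 2.53 and 74.7 in dyW, so that its lowest value lay in WT3 and in dyW2, where 9 and 20 reads were counted and where nearly all other members were highest. The log2 fold change was −1.78 (SE 1.21) with an adjusted P-value of 0.288 (limma, Benjamini-Hochberg) and an exact permutation P-value of 0.229. *Cox6b2*, with a mean of only 16.8, was likewise lowest in WT3 among WT and in dyW2 among dyW. *Atp5l* shares exon bases with *Gm30934*, so its level is uncertain, as is that of any member with near-identical gene copies, because only uniquely mapped reads were counted. In all, 55 of the 85 members share exon bases with another annotated gene.

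The c ring that turns as protons pass is made of identical subunits encoded by 3 genes, whose mature proteins are the same. *Atp5g1* took 26.1%, 15.2%, 34.6% and 10.2% in WT and 23.3%, 46.0% and 43.4% in dyW of the counts of the 3 genes. *Atp5g3* took 56.5%, 81.5%, 63.0% and 88.3% in WT and 71.9%, 51.5% and 49.8% in dyW, and *Atp5g2* 17.4%, 3.37%, 2.45% and 1.56% in WT and 4.72%, 2.49% and 6.87% in dyW. *Atp5g1* was at 46.0% and 43.4% in dyW2 and the library labelled dyW3, the highest of the 7, but dyW1 lay within the WT range. The exact permutation P-values were 0.171 for *Atp5g1*, 0.286 for *Atp5g3* and 0.971 for *Atp5g2*, whose difference of group means turned from −1.50 to 2.23 percentage points without WT1. None of the 8 isoform shares compared passed a P-value of 0.05 before adjustment, and the smallest the design allows is 0.0571. In normalized counts *Atp5g1* stood at 64.0, 121, 549.7 and 81.8 in WT and 75.1, 622 and 369.7 in dyW, and *Atp5g3* at 139, 653, 1001 and 711 in WT and 232, 697 and 424 in dyW. *Atp5g2* stood at 42.6, 27.0, 38.97 and 12.6 in WT and 15.2, 33.6 and 58.6 in dyW.

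**Figure D5:**
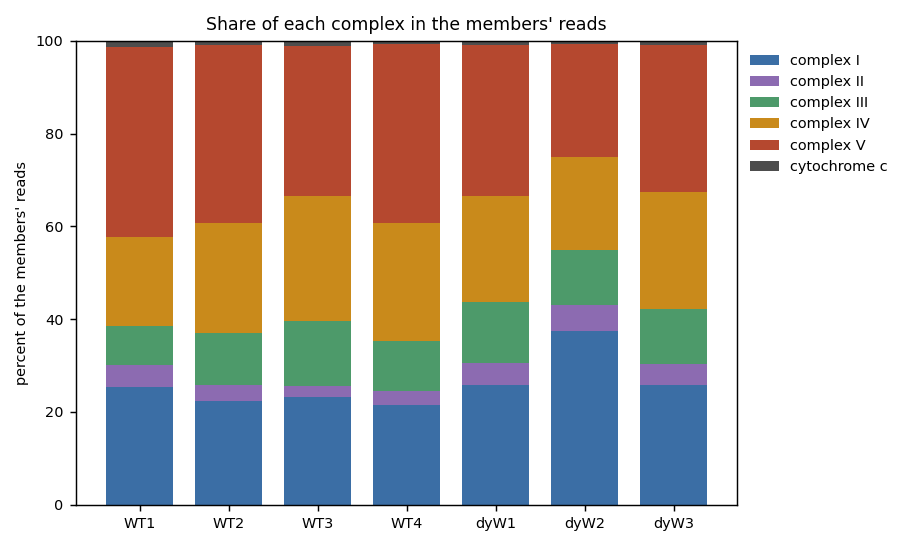
Share of each complex in the reads of all 85 members, in percent, stacked for each library. Complex I is between 21.4% and 25.5% in WT and at 25.8%, 37.4% and 25.8% in dyW, and complex V between 32.2% and 40.8% in WT and between 24.2% and 32.6% in dyW.

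Over all 85 members the sums were 4334, 11013, 44556 and 11076 in WT and 6244, 47087 and 18972 in dyW, a log2 ratio of 0.44 beside spans of 10.3-fold in WT and 7.54-fold in dyW. This ratio rested on single libraries, at −0.49 without dyW2, 0.12 without WT1, 0.27 without WT2 or without WT4, 0.90 without dyW1 and 1.45 without WT3. The members made up 0.173%, 0.277%, 0.978% and 0.200% in WT and 0.446%, 2.03% and 1.06% in dyW of all normalized counts. Set against the mitochondrial genome, which encodes the remaining subunits, the members had 5.22, 0.762, 2.34 and 1.25 in WT and 21.3, 6.29 and 8.75 in dyW normalized counts for every 100 on its protein-coding genes, of which 11 were in the table. Every dyW library lay above every WT library in this ratio, with a log2 ratio of means of 2.34, between 1.65 and 3.07 with 1 library left out. The mitochondrial genes themselves summed to 83059.6, 1445993, 1907413 and 889115 in WT and 29281, 748276 and 216888 in dyW, and the sum was lowest in dyW1 and WT1. No test was run on this ratio, in which all members share the same libraries.

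The remaining genes of the pathway were read in the same fit. Of 46 assembly factors, which insert cofactors and join subunits, 42 were tested and 1 was called lower in dyW and 0 higher, with a median log2 fold change of −0.12. This was *Sco1*, which delivers copper to complex IV, at 80.0, 32.4, 20.5 and 31.5 in WT and 2.83, 0.126 and 1.95 in dyW (log2 fold change −3.99, SE 0.80, limma with Benjamini-Hochberg adjustment, adjusted P-value 0.00575). Every WT library exceeded every dyW library. Of 10 regulators of mitochondrial genes, 1 was called lower and 0 higher, and 2 were lower at an adjusted P-value under 0.05 in limma, where 29.6% of all tested genes were. At an unadjusted P-value under 0.05, 3 regulators were lower and 1 higher, and 1 assembly factor was lower and 1 higher, beside 41.5% and 2.81% of all tested genes. The higher regulator was *Gabpa*, which encodes the DNA-binding part of GABP, at 53.3, 48.5, 34.9 and 37.8 in WT and 120.2, 138 and 110.4 in dyW (log2 fold change 1.49, limma, Benjamini-Hochberg adjusted P-value 0.0648), named after its values were seen. *Ppargc1b*, a coactivator of mitochondrial biogenesis, was counted at 32.0, 16.2, 10.3 and 18.9 in WT and 0, 2.02 and 0 in dyW (log2 fold change −3.71, adjusted P-value 0.00638 by the same limma fit with Benjamini-Hochberg adjustment). *Polrmt*, the mitochondrial RNA polymerase, was counted at 48.0, 40.5, 14.4 and 47.2 in WT and 6.63, 5.82 and 3.42 in dyW (log2 fold change −2.52, limma, Benjamini-Hochberg adjusted P-value 0.0273). The median over the regulators was −0.25. With quantile normalization the limma adjusted P-values (Benjamini-Hochberg) were 0.521 for *Sco1*, 0.951 for *Ppargc1b* and 0.721 for *Polrmt*, and with voom 0.0523, 0.0115 and 0.205. With the receptor level subtracted their log2 fold changes were −3.69, −0.52 and −1.26, and the adjusted P-values 0.138, 0.825 and 0.640 in limma with Benjamini-Hochberg adjustment. Without WT1, WT2, WT4, dyW1 or dyW2 in turn, those of *Sco1* and *Ppargc1b* rose above 0.01, to at most 0.0250 and 0.0234, and without WT1, WT2 or WT4 that of *Polrmt* rose above 0.05, to at most 0.111, in limma with Benjamini-Hochberg adjustment. Of 16 genes of the tricarboxylic acid cycle and pyruvate dehydrogenase, 0 were called in limma in either direction and 0 with voom, 1 was lower and 2 were higher at an unadjusted P-value under 0.05 (8.89% and 10.7% of genes with a mean of at least 50), and the median was 0.80. Of 3 tested subunits and partners outside the naming rule, *Ndufab1*, *Chchd10* and *Higd1a*, 0 were called in limma or with voom and 0 had an unadjusted P-value under 0.05 in either. For genes at low level the single-read step of a WT library, up to 5.33 normalized counts, exceeds the whole level in some dyW libraries, and 18.7% of all tested genes were called lower.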

How the data were processed

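RNAseq of muscle fibers from 4 WT and 3 dyW fetuses at E17.5 was analysed, grouped by the genotype in the labels. The authors used cutadapt for trimming and STAR with the GRCm39 genome for alignment, counted uniquely mapped reads per gene and deposited normalized counts, made by dividing each library by a DESeq2 size factor. Versions, annotation release and strand setting are not given in the sources used here. A further deposited table holds the authors' own fold changes and P-values and was not used.

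Every value in a library was a whole multiple, within 0.01, of the value of 1 read, and so 100% of values gave whole reads. Of the 31531 genes, 99.2% matched GENCODE mouse release 39, from which canonical transcript lengths and coordinates were taken. Genes with a mean of at least 5 were compared on log2(normalized count + 1), which understates changes of low genes, with limma 3.58.1 (lmFit, eBayes with trend) in R 4.3.3. Isoform shares were compared by exact two-sided permutation over the 35 splits. Other steps ran in Python 3.11.15 with scipy 1.17.1, pandas 2.3.3, numpy 2.4.6 and, for plots, matplotlib 3.10.9, and the fit was tested on simulated data. Members and lists were chosen with earlier results of these data known. Named are members with the highest and lowest fold change in each complex, all of complex II, *Cycs*, *Cyc1*, isoform and c-ring genes, the 3 highest and the 3 lowest means, and called genes of the pathway lists. Alternatives changed the pseudocount (0.1 or 10), the filter (none, or a mean of 50) and the scaling, added a replicate block, left out each library, or subtracted the level of odorant receptor and vomeronasal receptor genes. Voom, leaving out WT1 with dyW1, ribosomal protein and transcript length classes, and the bone list were added after seeing the data. The planned edgeR and DESeq2 count tests were not run.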

Additional observations from a re-analysis of the deposited data

Results flagged for a closer look

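Among the 4 WT libraries, 19 of 52 values examined had 1 library far from the other 3, judged by the gap to its nearest neighbour as a share of the whole range (Dixon's ratio). Chance gives about 1 in 20, and the values share their libraries. The library was WT3, on the high side, for the summed normalized counts of all members (0.832), complex I (0.851), complex III (0.851) and cytochrome c (0.929), and for the members' share of all normalized counts (0.871). It was also WT3 for the normalized counts of *Atp5c1* (0.837), *Atp5g1* (0.882), *Atp5j* (0.893), *Cox4i1* (0.840), *Cox6a1* (0.902), *Cyc1* (0.912), *Cycs* (0.929), *Ndufa1* (0.878), *Ndufb7* (0.856), *Sdhd* (0.837) and *Uqcr10* (0.888). It was WT1 for the share of *Cox7a1* in its isoform group (0.917), the share of *Atp5g2* in its isoform group (0.886) and the normalized count of *Cox8b*, at 0 there (0.857). These ratios are given as values, and the cause was not tested.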

How the results depend on the processing

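The count of 0 called members held under every alternative run. Members past an adjusted P-value of 0.05 in limma numbered 6 with the same total for all libraries (18.5% of genes with a mean of at least 50 were higher) and 0 to 1 with a library left out (1 without WT3, where 4.27% were higher). Members higher in dyW without overlap numbered 10 with the same total, beside 9.08% of all tested genes. Of these, 9 had a mean of at least 50, beside 29.6% of the genes of that level. With quantile normalization there was 1, with a mean under 50, beside 6.21% of all tested genes. Without WT1 and dyW1 there were 8 (24.2% of genes with a mean of at least 50). With a library left out there were 0 to 9 (18.0% of the genes of that level without WT3). Members lower in dyW without overlap numbered 0 to 1. With a library left out, the log2 ratio of complex II ran from 0.16 to 2.05, while those of complexes I, III, IV and V and of all members were −0.32, −0.57, −0.55, −0.61 and −0.49 without dyW2 and 2.02, 1.62, 1.33, 0.92 and 1.45 without WT3, and the complex I share difference ran from 2.72 to 8.51 points (9.29 without WT1 and dyW1). Isoform share differences ran, in points, from −2.91 to 0.616 for *Cox7a1*, −3.58 to 6.93 for *Cox8b*, −3.81 to 0.577 for *Cox4i2* and −3.04 to 2.23 for *Atp5g2*, and without WT1 and dyW1 were 1.59 for *Cox7a1* and 2.22 for *Atp5g2*. Deviations of libraries with the same replicate number had correlations of 0.147, −0.0494 and −0.0880 over all tested genes. Over genes with a mean of at least 50 these were 0.383, 0.0111 and −0.146, beside 0.460 for WT3 with dyW2. Whether the numbers pair the samples is not given in the labels. With them as a block 0 members were called or passed an adjusted P-value of 0.05 in limma and the members' median was 0.53. In that limma fit the adjusted P-values of *Sco1*, *Ppargc1b* and *Polrmt* were 0.0614, 0.0678 and 0.171. The largest shift of that median was to 1.77, with the same total.

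Log2 fold changes of members that never passed the test changed sign as follows. With a pseudocount of 0.1, *Cox7a1* −0.60 and *Cox8b* −0.18. With a pseudocount of 10, *Cox6a2* 0.0047 and *Cyc1* −0.024. With the same total, *Atp5b* 1.001, *Atp5c1* 0.94, *Atp5g3* 0.85, *Cox4i1* 0.90, *Cox6a2* 0.61, *Ndufa4l2* 0.12, *Ndufb7* 1.04, *Sdhc* 0.71 and *Uqcr10* 1.11. With quantile normalization, *Cox4i2* 1.46, *Cox6a2* 0.24, *Cox8a* −0.49, *Ndufa4l2* 0.24 and *Ndufb7* 0.16. With the replicate block, *Atp5g2* −0.18, *Cox6a2* 0.16 and *Cyc1* −0.15. With voom, *Atp5g2* −0.19, *Cox7a1* −2.20, *Cox8a* −0.11, *Cox8b* −2.99, *Cyc1* −0.36 and *Cycs* −0.056. With both WT1 and dyW1 left out, *Atp5b* 0.20, *Cox6a2* 0.41, *Cyc1* −0.15, *Ndufb7* 0.26, *Sdhc* 0.017 and *Uqcr10* 0.26. With a library left out, they ran from −0.54 to 0.45 for *Atp5b*, −0.82 to 0.50 for *Atp5c1*, −0.27 to 0.67 for *Atp5g2*, −0.92 to 0.11 for *Atp5g3*, −0.98 to 0.71 for *Cox4i1*, −1.68 to 1.87 for *Cox6a2*, −0.035 to 0.83 for *Cox6b2*, −0.23 to 0.70 for *Cox8a*, −1.22 to 2.02 for *Cox8b*, −0.42 to 0.72 for *Cyc1*, −0.33 to 1.02 for *Cycs*, −1.48 to 1.06 for *Ndufb7*, −0.87 to 1.94 for *Sdhb*, −1.28 to 0.41 for *Sdhc* and −1.14 to 1.18 for *Uqcr10*. Higher and past an adjusted P-value of 0.05 in limma were *Ndufa1* (3.77), *Ndufb3* (3.32), *Ndufv1* (2.74), *Ndufv2* (2.72), *Sdha* (2.16) and *Sdhd* (3.52) with the same total, and *Ndufa1* (3.35) without WT3. The cause was not tested. The edgeR and DESeq2 alternatives were not run. A median of 6 reads per member in WT1 limits what that library can show.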

Other observations

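Of the 11 genes of the mitochondrial genome that the ratio to nuclear members used, 3 had few counts in every library. The highest value in any library was 30.8 normalized counts for mt-Atp6, a complex V subunit, 14.4 for mt-Co2 and 24.6 for mt-Co3, the core subunits of complex IV beside mt-Co1. By contrast mt-Co1 was counted at 21884, 318162, 350476 and 215867 in WT and 6829, 84101 and 78095 in dyW, and mt-Cytb of complex III at 14639, 325489, 714477 and 166110.2 in WT and 8814, 480728 and 37698 in dyW. In dyW2 mt-Cytb stood above mt-Nd1 (78449), and in the library labelled dyW3 below it (59349), so the genes that make up the mitochondrial sum differ between libraries. These genes were named after their values were seen.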
